A study of Mus musculus with 6 samples.

Results

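The miR-181 family consists of mmu-miR-181a, mmu-miR-181b, mmu-miR-181c and mmu-miR-181d (mmu for mouse, dropped from here on), and its 4 members were chosen by name among the 611 mouse microRNA (miRNA) entries of an array, star forms left out. RNA came from MCT, a mouse renal tubular cell line with SJL H-2S background, hybridised to 6 one-colour arrays. The TGFβ group (3 arrays) had received transforming growth factor beta at 3 ng/ml for 72 hours, and the control group (3 arrays) had not. Cells of the TGFβ group were moved to medium with 0.5% fetal calf serum on the day before the cytokine was added. The labels do not state separately what medium the control cells had. They do not say either whether the replicates of a group were separate cultures, so p-values measure the spread between these arrays, which may be technical. An array of RNA from a whole dish cannot tell more miRNA per cell from more cells that hold it.

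A miRNA is cut from a hairpin precursor and guides a silencing complex to messenger RNAs that pair with its seed, the bases near its 5′ end. miR-181 miRNAs are best known from lymphocytes, where miR-181a tunes the sensitivity of the T cell receptor in mice. In cancer and liver cells TGFβ has been reported to raise miR-181a and miR-181b, and the mRNA of the metalloproteinase inhibitor TIMP3 is a reported target of miR-181b. The series compares TGFβ-treated tubular cells with untreated ones, which is the question followed here for this family.

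The 4 mature sequences are shown because the members share a seed and differ only downstream of it, so that the array has to tell near-identical molecules apart. All 4 matched an entry of RefSeq on build GRCm38.p6, and the capitals mark the seed, bases 2 to 8, written 5′ to 3′.
miR-181a: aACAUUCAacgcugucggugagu
miR-181b: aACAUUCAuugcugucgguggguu
miR-181c: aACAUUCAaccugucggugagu
miR-181d: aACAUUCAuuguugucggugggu
Of 1679 mature mouse entries in that table, 4 carried this seed, and they were the 4 members. With positions counted from 1 at the 5′ end and the first-named member's base given first, miR-181b and miR-181d differed by the single substitution C12U and by 1 base of length. miR-181a and miR-181b differed by A9U, C10U and A21G and by 1 base of length. miR-181c lay 1 edit from miR-181a, being 1 base shorter, and 5 edits from miR-181b. The sequences of the array's probes were not used here, so how far one member's RNA lights the probes of another was not tested.

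The members come from 6 genes at 3 places in the genome. Mir181a-1 and Mir181b-1 are neighbours on chromosome 1, and Mir181a-2 and Mir181b-2 are neighbours on chromosome 2 inside Nr6a1, which encodes a nuclear receptor, and its opposite-strand transcript Nr6a1os. Mir181c and Mir181d lie together on chromosome 8, and the next genes on one side are Mir23a, Mir27a and Mir24-2. The array was designed on an older build (mm9), so no coordinates are given. The precursors of miR-181b are shown because both release the same mature miRNA, in capitals here, and a signal for miR-181b cannot be assigned to either gene.
Mir181b-1 (chromosome 1, plus strand): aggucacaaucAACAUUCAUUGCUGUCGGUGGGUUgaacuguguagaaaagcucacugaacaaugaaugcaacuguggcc
Mir181b-2 (chromosome 2, plus strand): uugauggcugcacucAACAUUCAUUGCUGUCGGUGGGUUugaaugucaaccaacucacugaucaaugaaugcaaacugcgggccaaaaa

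Between 74 and 103 of the 611 mouse miRNAs were well above background on an array. The counts were 103, 89 and 86 on TGFβ 1 to 3, and 86, 75 and 74 on controls 1 to 3. The number of arrays limits the precision of every difference below. Signals are Agilent processed intensities divided by each array's 75th percentile, taken over the 105 probes that every array measured well above background, and are called scaled signals. Control 1 stood apart from the other controls: among the 84 tested miRNAs its typical (median) absolute log2 gap was 0.48 and 0.52 to controls 2 and 3, but 0.26, 0.21 and 0.16 to TGFβ 1 to 3, so results are given with and without it. Control 1 was singled out by these same values. Leaving out the control nearest the TGFβ arrays favours larger differences, and the p-values without it do not allow for that. Of the marker miRNAs, 0 of 6 of blood cells and 0 of 2 of endothelium were well above background on any array. For epithelium (the miR-200 family) and mesenchyme, 0 of 5 each were well above background on any array. Of 8 kidney tubule markers, miR-10a, miR-10b, miR-30a and miR-30c were, while miR-192, miR-194, miR-204 and miR-215 were not. Of the 3 tubule markers tested, 0 passed, with a median log2 difference of -0.52. Over all 84 tested miRNAs 0 passed as well, and the median was -0.09. The summed scaled signal of the blood cell markers, the class in which miR-181 is best known, reached at most 24.5 on TGFβ arrays and 24.3 on control arrays.

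MCT cells gave a signal well above background for 1 member of the family, miR-181b. It was well above background on 3 of 3 TGFβ arrays and on 1 of 3 control arrays. For miR-181a, miR-181c and miR-181d no array passed that mark, where a miRNA counts as such when at least 0.5 of the spots of one of its probes do. Over the whole array 17.5% of mouse miRNAs (107 of 611) were well above background on at least 1 array. Each member was read by 2 probes of 10 spots each. For miR-181a, miR-181c and miR-181d together, 1 of 180 spots on TGFβ arrays and 3 of 180 on control arrays were well above background, against 40 of 60 and 13 of 60 for miR-181b. Those 1 and 3 spots were all marked as outliers and were left out of the values. The plot of single spots shows the spots that were kept, for all 8 probes.

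**Figure D1:**
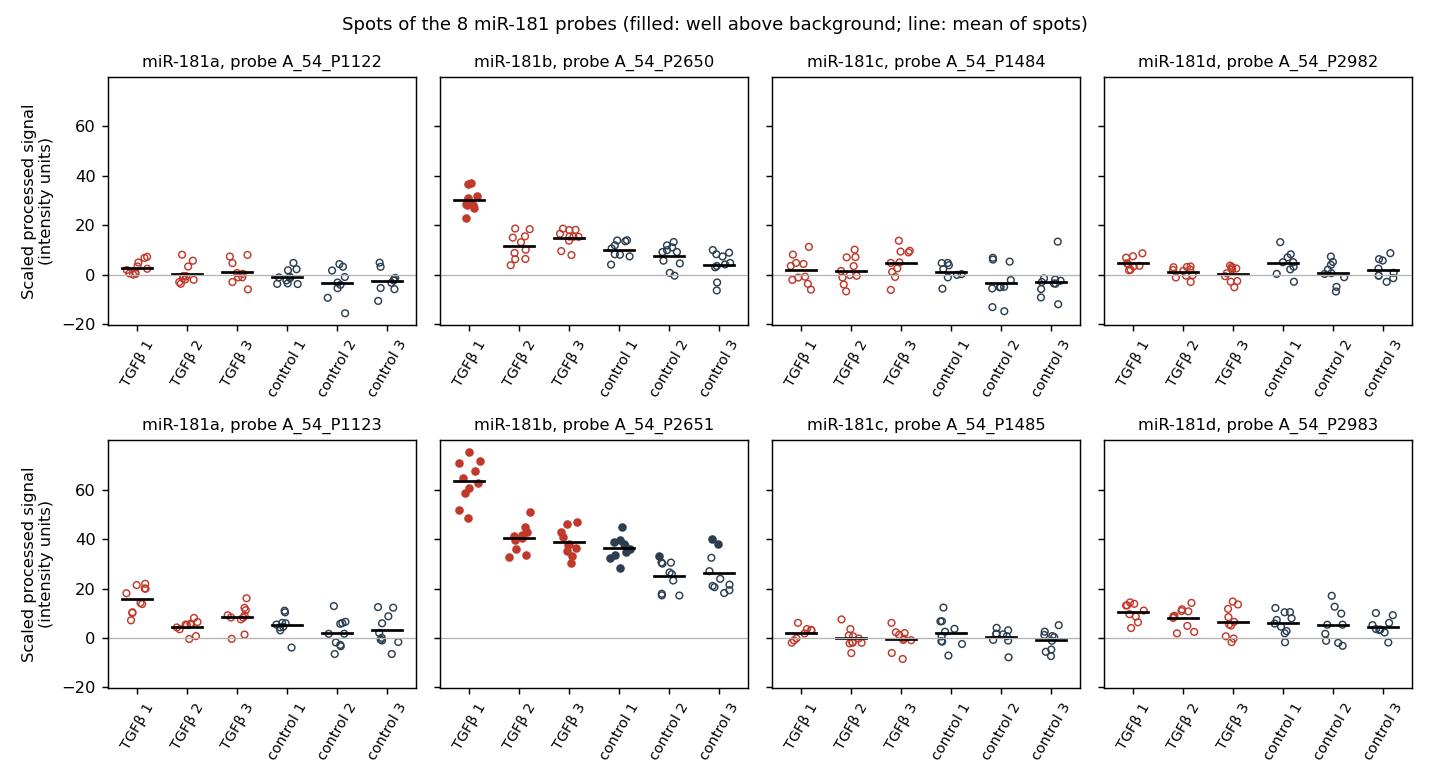
Scaled processed signal (intensity units) of single spots of the 8 miR-181 probes on TGFβ 1 to 3 and controls 1 to 3, with outlier spots left out; filled points are well above background and the black line is the mean of the spots. Filled points fill probe A_54_P2651 of miR-181b on the TGFβ arrays and control 1 and probe A_54_P2650 on TGFβ 1, and 1 and 2 further spots on controls 2 and 3.

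After scaling, both probes of miR-181b read higher on every TGFβ array than on every control array, but they differed in how many arrays lifted them above background. Probe A_54_P2651 read 63.4, 40.4 and 38.8 on TGFβ 1 to 3, against 36.4, 25.2 and 26.2 on controls 1 to 3 (scaled signal). TGFβ 1 was the highest array and controls 2 and 3 the lowest, and control 1 came closest to the TGFβ arrays. On TGFβ 1 to 3 all 10 spots of this probe were well above background, against 10, 1 and 2 of 10 on controls 1 to 3. Its group means were 47.5 ± 13.7 in TGFβ-treated cells and 29.3 ± 6.16 in control cells (SD, n = 3 arrays each). Probe A_54_P2650 read 30.2, 11.6 and 14.9 on TGFβ 1 to 3, against 10.2, 7.49 and 4.04 on controls 1 to 3. It was well above background on TGFβ 1 only, so its size of difference rests on signal near background. The gap between TGFβ 2 and control 1 on this probe, 11.6 against 10.2, was smaller than the spot SD of either array (5.30 and 3.44). Across the 6 arrays the scaled signals of these probes had a Pearson r of 0.97, given as a description since both read the same RNA extracts.

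The dimmer control arrays, controls 2 and 3, also had a higher limit for the background mark once scaled. This limit is the signal of the dimmest probe that passed the mark, and not a measured bound of detection. The lowest scaled signal among all probes well above background was 20.1, 19.4 and 21.5 on TGFβ 1 to 3, against 21.7, 30.3 and 36.4 on controls 1 to 3. The signal of A_54_P2651 on controls 2 and 3 lay under that limit. All 10 of its spots on each of these controls still carried the software's weaker flag, positive and significant. Before scaling, A_54_P2651 read 70.8, 49.8 and 40.3 on TGFβ 1 to 3, against 40.5, 20.7 and 20.03 on controls 1 to 3. Unscaled, TGFβ 3 and control 1 were level and the groups overlapped, so the separation of the groups on this probe holds for scaled values only. The scanner software's own total signal for miR-181b, also unscaled, was 69.4, 33.05 and 37.04 on TGFβ 1 to 3, against 26.9, 13.8 and 13.3 on controls 1 to 3. That software marked miR-181b as detected on all 6 arrays. The part that array brightness plays in the order of miR-181b was not tested.

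Averaged over its probes, miR-181b had a scaled signal of 46.8, 26.0 and 26.8 on TGFβ 1 to 3, against 23.3, 16.4 and 15.1 on controls 1 to 3. On the log2 scale these were 5.55, 4.70 and 4.75 in TGFβ-treated cells, against 4.54, 4.03 and 3.92 in control cells. The groups did not overlap, but the neighbours in the order were close: TGFβ 2 and TGFβ 3 differed by 0.04, TGFβ 2 and control 1 by 0.16, and controls 2 and 3 by 0.11 log2 units. TGFβ 1 lay 0.80 above the next array. The mean was 5.00 ± 0.48 in TGFβ-treated cells and 4.16 ± 0.33 in control cells (SD, n = 3). The log2 difference was 0.83 (SE 0.30, 95% interval 0.10 to 1.56). Since miR-181b was well above background on only 1 of 3 control arrays, this is a difference of fitted values and no fold is given. It did not pass in limma over all 84 tested miRNAs (adjusted p = 0.391), and the exact two-sided permutation p was 0.1, the smallest that 3 against 3 arrays can give. With all 6 arrays limma passed 0 of 84 miRNAs (0%), while 8 of 84 (9.52%) had an unadjusted p under 0.05, 5 of them (5.95%) higher in TGFβ-treated cells, miR-181b among them. Groups did not overlap with TGFβ higher for 7 of 84 (8.33%). miR-181b was one of 14 tested miRNAs that missed the background mark on at least 1 array, and it entered the test through the TGFβ group alone. That entry rule favours a positive difference.

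**Figure D2:**
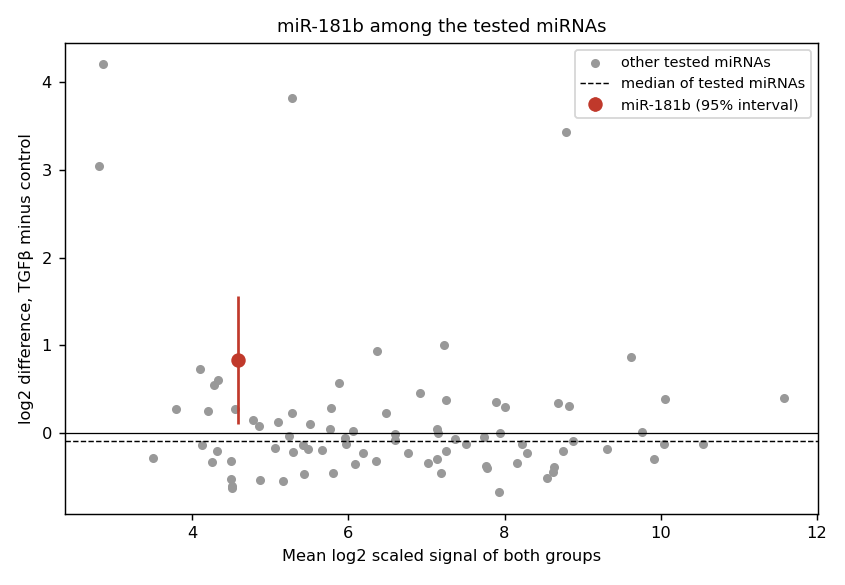
Log2 difference, TGFβ minus control, of the 84 tested miRNAs (vertical axis) against their mean log2 scaled signal (horizontal axis); miR-181b is in red with its 95% interval, and the dashed line is the median of all tested miRNAs. miR-181b lies at 0.83 with an interval from 0.10 to 1.56, above the median of -0.09, and 7 miRNAs lie higher.

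The size of the miR-181b difference turned on the way spot signal was taken, and its size and call turned on single arrays. With normexp background correction of the spots' median signal, in place of the processed signal, the log2 difference of miR-181b was 0.01 (SE 0.13, limma adjusted p = 0.942). That correction adds an offset of 50 intensity units, which makes log2 differences of dim miRNAs smaller, and the part it plays here was not tested. Without control 1 the fitted log2 difference was 1.02 (SE 0.29, limma adjusted p = 0.0495), in a fit that passed 31 of 85 miRNAs (36.5%), 11 of them higher (12.9%). Both remaining controls missed the well-above-background mark for miR-181b, which entered that fit through the TGFβ arrays alone. The limit of the background mark is that of single probes, while miR-181b was averaged with its dimmer probe, A_54_P2650. Against this limit on controls 2 and 3 the ratio over both probes came to 0.96. These arrays therefore give no measured fold, and the p-value rests on control values under that limit. For probe A_54_P2651 alone the ratio of the TGFβ mean to the mean of these limits, both taken on log2, came to 1.39. Single arrays lay closer: TGFβ 3 read 38.8, against a limit of 36.4 on control 3. The fit of this probe without control 1 gave 0.84 (SE 0.24, limma adjusted p = 0.0464), where 33 of 85 miRNAs passed (38.8%), 13 of them higher (15.3%). Without TGFβ 1 the difference of miR-181b was 0.56 (SE 0.24, limma adjusted p = 0.571). With TGFβ 1 and control 1 both left out it was 0.75 (SE 0.11, limma adjusted p = 0.0120), where 35 of 85 miRNAs passed (41.2%), 15 of them higher (17.6%). With arrays weighted by their estimated quality it was 0.88 (SE 0.18, limma adjusted p = 0.0095), and 45 of 84 miRNAs passed (53.6%), 18 of them higher (21.4%). In that fit, whose weights had not fully converged, control 1 had a weight of 0.14, against 3.71 and 3.08 for controls 2 and 3. The fit so came close to leaving control 1 out. Leaving out both arrays, or control 1 with the dimmer probe, was chosen after the values were seen, and these p-values do not allow for that choice.

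The slide positions gave the same sign with different sizes. All arrays lay on 1 slide. Row 1 held the 3 controls and TGFβ 1, and row 2 held TGFβ 2 and 3 only, so row and treatment were largely confounded. A difference within rows therefore rests on TGFβ 1 alone among the treated arrays. TGFβ 1 and control 3 were alone in columns 4 and 3, so a difference within columns rests on the pairs in columns 1 and 2. In slide column 1, TGFβ 2 read 4.70 and control 1 read 4.54, a log2 difference of 0.16. In column 2, TGFβ 3 read 4.75 and control 2 read 4.03, a difference of 0.71. In slide row 1, TGFβ 1 read 5.55 against a mean of 4.16 on the 3 controls, a difference of 1.38. The medians over all tested miRNAs in these comparisons were 0.03, -0.10 and 0.01. With the column as a block the difference of miR-181b was 0.44 (SE 0.37, limma adjusted p = 0.941), and with the row as a block 1.38 (SE 0.30, limma adjusted p = 0.0923). With the replicate number as a block it was 0.83 (SE 0.22, limma adjusted p = 0.114), and 1 of 84 miRNAs passed, miR-714. No label states a pairing by replicate number.

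**Figure D3:**
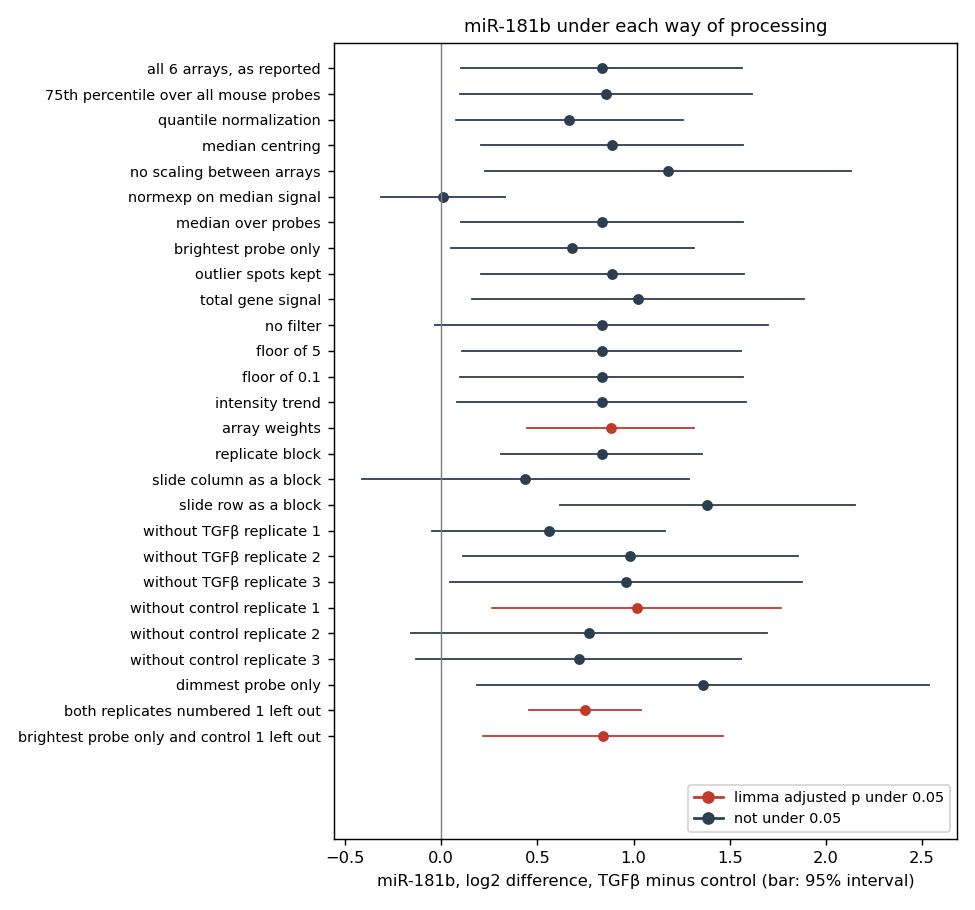
Log2 difference of miR-181b, TGFβ minus control (horizontal axis), under each way of processing the arrays (rows), with 95% intervals; red marks a limma adjusted p under 0.05. The points lie between 0.01 with normexp background correction and 1.38 with the slide row as a block, and red points appear with array weights and in 3 settings that leave out control 1.

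miR-181a, the member known from T cells, did not reach the background mark on any array, and its values ran in the same direction. Probe A_54_P1123 read 15.7, 4.47 and 8.31 on TGFβ 1 to 3, against 5.23, 2.04 and 3.19 on controls 1 to 3 (scaled signal), and 0 of 60 spots of either group were well above background over its probes. TGFβ 2 lay under control 1 on this probe, so the groups overlapped. Probe A_54_P1122 read 2.83, 0.38 and 1.11 on TGFβ 1 to 3, against -0.80, -3.28 and -2.52 on controls 1 to 3. A negative value is a spot mean below its estimated background. Averaged over both probes the nearest arrays were TGFβ 2 at 2.42 and control 1 at 2.22, and the groups did not overlap. The spot SDs of A_54_P1123 and A_54_P1122, 2.58 and 3.94 on TGFβ 2 and 4.33 and 2.87 on control 1, were larger than that gap. How many untested miRNAs had groups without overlap was not counted, so the order is not read as a result about miR-181a. No fold is given for miR-181a, since no array measured it well above background.

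The star arms of the miR-181a precursors are shown because they differ between the genes, unlike mature miR-181a, and both are on the array. Their seeds are in capitals.
miR-181a-1*: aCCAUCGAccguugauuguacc
miR-181a-2*: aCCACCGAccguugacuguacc
Neither passed the background mark on an array, and 1 of 120 spots on TGFβ arrays and 0 of 120 on control arrays were. Their probe means lay between -4.09 and 4.52 on TGFβ arrays and between -4.66 and 7.92 on control arrays. Neither star arm therefore gave a value that could be set against its gene.

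miR-181d, the member nearest to miR-181b in sequence, read low throughout. Probe A_54_P2983 read 10.5, 8.27 and 6.45 on TGFβ 1 to 3, against 6.18, 5.10 and 4.60 on controls 1 to 3, and A_54_P2982 read 4.72, 1.02 and 0.34, against 4.59, 0.74 and 2.09. The groups did not overlap on the first probe and overlapped on the second, and the share of all mouse probes without overlap was not counted. On TGFβ 1, where both miR-181b probes read highest, both miR-181d probes read highest too, and neither had a spot well above background. The dimmest probe with that mark on TGFβ 1 read 20.1, and signal shared between the members was not tested. For miR-181c, probe A_54_P1484 read 1.81, 1.67 and 4.80 on TGFβ 1 to 3, against 1.10, -3.25 and -2.97 on controls 1 to 3. Its other probe, A_54_P1485, read 1.88, -0.12 and -0.52, against 2.06, 0.37 and -0.95. These values lie around 0 in both groups, and averaged over their probes both miR-181c and miR-181d overlapped between the groups.

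The chromosomal neighbours of miR-181c and miR-181d were clearly measured. Every array measured miR-23a, miR-27a and miR-24 well above background, although miR-24 is also made from a second gene elsewhere. miR-23a read 7.63, 7.81 and 7.69 on TGFβ 1 to 3, against 7.49, 7.80 and 8.003 on controls 1 to 3 (log2 scaled signal). The groups overlapped, and its log2 difference was -0.05 (SE 0.18, limma adjusted p = 0.851). miR-27a differed by -0.13 (SE 0.26, limma adjusted p = 0.775) and miR-24 by -0.23 (SE 0.18, limma adjusted p = 0.500). Of the 3 neighbours, 0 passed in either direction, and 0 of 84 did over all tested miRNAs. The median difference of the neighbours was -0.13, against -0.09 over all tested miRNAs.

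Of 18 miRNAs that the literature ties to TGFβ or fibrosis, 6 were tested, 4 with a positive and 2 with a negative difference, and 0 passed in either direction. Limma passed 0 of all 84 tested miRNAs too, with a median difference of -0.09, against 0.22 for these 6. The smallest p-values among them were those of miR-34a, a transcriptional target of p53, at 0.87 (SE 0.40, limma adjusted p = 0.391), and of miR-494, from the imprinted Dlk1-Dio3 region, at 3.82 (SE 1.92, limma adjusted p = 0.391). miR-494 read 11.62, 4.26 and 5.69 on TGFβ 1 to 3, against 4.68, 2.64 and 2.81 on controls 1 to 3. It was well above background on 3 TGFβ arrays but only 1 control array. It thus entered the test through the TGFβ group alone, and no fold is given. On miR-494, as for miR-181b, TGFβ 1 was the highest array and control 1 the highest control. The share of all tested miRNAs with this order was not counted.

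The miRNAs whose log2 signal followed miR-181b most closely over the 6 arrays were miR-714, miR-31 and miR-1224, with Pearson r of 0.99, 0.98 and 0.96. Over the 83 other tested miRNAs the median r was -0.24, and 6 had an r above 0.9. The arrays share a slide and a scaling, and no p is given. miR-714 read 7.88, 3.08 and 3.91 on TGFβ 1 to 3, against 2.24 on control 1, and was at the floor of 1 scaled unit on the other controls. miR-31 was measured well above background everywhere and read 8.41, 8.08 and 7.98 on TGFβ 1 to 3, against 7.996, 7.79 and 7.79 on controls 1 to 3. Its groups overlapped, since control 1 lay above TGFβ 3, and its log2 difference of 0.30 (SE 0.17) did not pass (limma adjusted p = 0.433). miR-1224 read 14.48, 8.40 and 8.64 on TGFβ 1 to 3, against 8.31, 6.48 and 6.45 on controls 1 to 3. In each of these miRNAs TGFβ 1 was the highest array and control 1 the highest control, as for miR-181b. They were picked for likeness to miR-181b over these arrays, which favours a shared order. How many other tested miRNAs had this order was not counted.

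**Figure D4:**
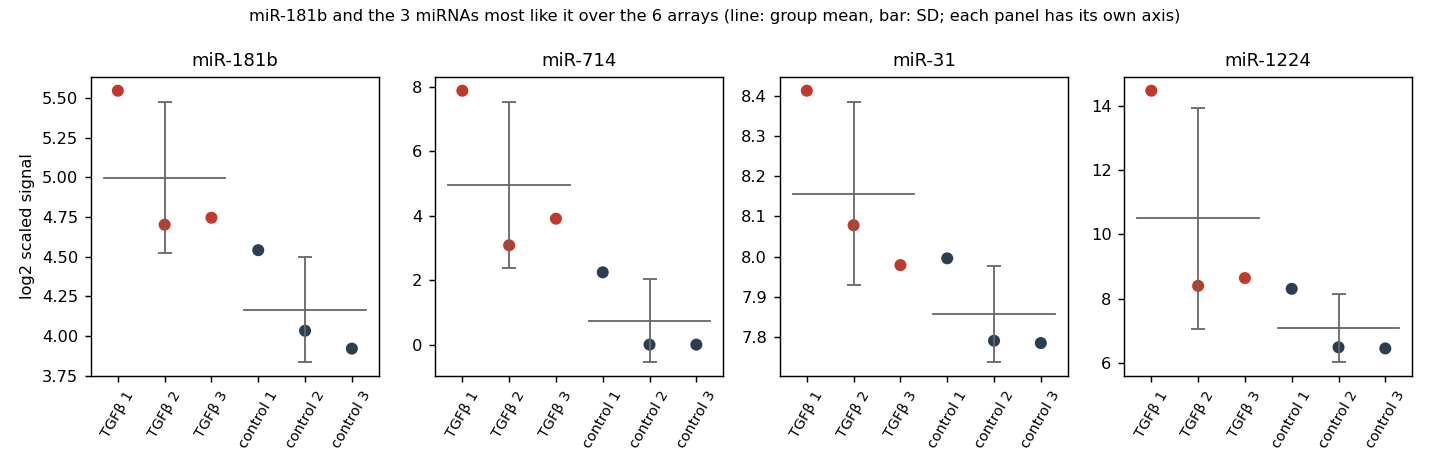
Log2 scaled signal of miR-181b and of the 3 miRNAs most like it on TGFβ 1 to 3 (red) and controls 1 to 3 (dark), one panel each with its own axis; lines are group means and bars SDs. In all 4 panels TGFβ 1 is the highest point and control 1 the highest control, and miR-714 is at the floor on controls 2 and 3. The 3 were picked for likeness to miR-181b over these arrays, which favours a shared order.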

How the data were processed

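Per the labels, 100 ng of total RNA per array was labelled with Cy3. The deposited scanner files hold background-subtracted fluorescence intensity per spot without scaling across arrays, per the file headers; total gene signal and median spot and background intensity were used for alternatives, and the spot flags, deposited as 0 or 1, came from the same files. The headers name Agilent Feature Extraction 10.7.3.1 and the submitters' processing notes 10.1.1. The deposited value table held the same intensities (largest difference 0). No mouse spot was saturated.

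Spots of a probe were averaged without outlier-marked spots, then scaled, then the probes of a miRNA averaged; a floor of 1 was set and log2 taken. miRNAs well above background on all 3 arrays of a group were tested (84) with limma 3.58.1 in R 4.3.3 (lmFit, eBayes, two-sided, Benjamini-Hochberg, threshold 0.05). A check on simulated data gave each miRNA independent noise of the same spread on every array. Control 1 stood apart in the real data, so that check does not vouch for the calls. Figures used matplotlib 3.10.9.

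Groups and replicate numbers come from the titles, and slide rows and columns from the scan names. Deviations from the group mean correlated between same-numbered arrays (0.38, 0.37 and 0.52), and the numbers were also fitted as a block. Differently numbered arrays were not correlated for comparison. Controls 2 and 3 were nearly alike (median absolute log2 gap 0.06), so these values do not show a pairing by number. The labels do not state one. Named miRNAs are the members, star arms, chromosomal neighbours, the 3 most like miR-181b, and the 2 list members with the smallest p. Members, lists and tests were chosen with earlier results of these data known.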

Additional observations from a re-analysis of the deposited data

Results flagged for a closer look

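For miR-181a, the software's own total signal, which above is given only for miR-181b and as an alternative measure, was 11.7 intensity units on TGFβ 1 and marked as detected there, against 0.1, the value listed for undetected miRNAs, on TGFβ 2 and 3 and on controls 1 to 3. It was picked out as a signal above that of the controls outside the scaled processed signal. Of the spots of its probes on TGFβ 1, 0 were well above background.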

How the results depend on the processing

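miR-181b kept a positive difference in all 26 alternatives that gave a value, from 0.01 to 1.38, with limma adjusted p between 0.0095 and 0.976. The median over probes, no filter, both other floors, the intensity trend and the replicate block left the difference at 0.83, so they could not change its sign. All alternatives reuse the same arrays, so their number does not measure how robust the sign is. miR-181b passed with array weights (0.88, limma adjusted p = 0.0095, 45 of 84 miRNAs passing, weights not fully converged and lowest for control 1), without control 1 (1.02), with both replicates numbered 1 left out (0.75) and with the brightest probe only and control 1 left out (0.84). Leaving out 1 array at a time gave 0.56 to 1.02. By probe it was 0.68 with the brightest only and 1.36 with the dimmest only. Without scaling it was 1.18, with the median of all tested miRNAs moving from -0.09 to 0.26, and with quantile normalization 0.67. With normexp on the median signal it was 0.01. That setting changes the signal column and the background method and adds an offset of 50, all together, and the cause was not tested. Requiring every array to be well above background left miR-181b untested. The number of miRNAs passing was 0 except for 45 with array weights, 1 with the replicate block, 3 with the slide row as a block, 35 with both replicates numbered 1 left out, 33 with the brightest probe and control 1 left out, and 0 to 31 when 1 array was left out. The replicate block changed no other call. With no filter limma gave miR-181a, miR-181c and miR-181d adjusted p of 0.976, 0.976 and 0.994, on values partly at the floor. The planned within-array comparison of miR-181b with miR-181a was not run because miR-181a was not well above background on any array, and the value table because it is identical. The dimmest-probe fit and both fits named as leaving out control 1 with a second choice were added after seeing the data. Signal near background limits all 4 members.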

Other observations

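Feature Extraction also marks spots as positive and significant, a weaker flag than well above background. By it, probe A_54_P1123 of miR-181a had 10, 7 and 8 of 10 such spots on TGFβ 1 to 3, against 5 of 9, 2 of 10 and 3 of 10 on controls 1 to 3. Probe A_54_P2983 of miR-181d had 8 of 9, 8 of 10 and 7 of 10 on TGFβ 1 to 3, against 6 of 10, 3 of 9 and 2 of 9 on controls 1 to 3. For miR-181c, probe A_54_P1484 had 3, 3 and 6 of 10 on TGFβ 1 to 3, against 2 of 8, 1 of 10 and 1 of 10 on controls 1 to 3. On these probes every TGFβ array had more such spots than every control array by count, and spots of an array are repeats of one RNA sample, so no test is given. These probes were picked after their values were seen. The second probes of miR-181c (1, 1 and 1 on TGFβ arrays, against 3, 0 and 0 on controls) and miR-181d (4, 0 and 0, against 5, 1 and 1) did not show that order, while that of miR-181a (3, 2 and 3, against 1, 0 and 0) did. For miR-181b, A_54_P2651 had 10 of 10 on every array. A_54_P2650 had 10, 9 and 10 of 10 on TGFβ 1 to 3, against 8 of 9, 6 of 10 and 4 of 10 on controls 1 to 3. Controls 2 and 3 were the dimmer arrays, and how many other mouse probes show this order was not counted. The order is therefore not shown to be particular to the family.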
